A study of Mus musculus with 3 samples.

Results

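Definitive endoderm cells were the cells of 3 mouse gastrulation libraries that carried Sox17 together with a second endoderm gene and almost no serum-protein transcripts of visceral endoderm. A cell was counted when it had at least 1 unique molecular identifier (UMI, a tag that marks 1 captured RNA molecule) of Sox17, at least 1 UMI of Foxa2, Cer1, Hhex or Trh, and less than 0.1% of its UMIs on Ttr, Apoa1, Apoc2, Rbp4, Apob and Afp together. Of 21573 kept cells, 1002 met this rule (4.64%). A cell was kept when at least 1000 genes were detected and at most 10% of its UMIs were mitochondrial, which left 21573 of 27873 barcodes. The levels of the 11 rule genes therefore chose the cells and are given below as a description, without a test.

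Each group was 1 library. The E7.0 and E7.25 libraries came from embryos and the E7.5 library from the posterior region of embryos, all recorded as an ARC mouse strain under normal conditions, with no mutant or treated group. Embryos were dissociated with trypsin, strained and run on 1 droplet channel per stage with a kit that reads the 3' ends of transcripts; the number of embryos in a library is not given in the sources used here. With 1 library per group, differences between stages have no replicate check, and stage, library and the dissected region cannot be told apart. Comparisons between cell classes used the 3 libraries as replicates. Where 3 values follow each other, the first is from E7.0, the second from E7.25 and the last from E7.5 posterior.

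In the mouse, definitive endoderm arises at the anterior primitive streak, where epiblast cells that have received NODAL signals ingress and then enter the outer cell layer, intercalating among visceral endoderm cells. The cells become the epithelial lining of the gut tube and of organs that bud from it. Sox17, an HMG-box transcription factor, is required for gut endoderm in the mouse; Foxa2 is a forkhead factor of streak, node and endoderm; Cer1 encodes a secreted inhibitor of NODAL and BMP ligands; Hhex is a homeobox gene of anterior endoderm; and Trh encodes the precursor of thyrotropin-releasing hormone. Visceral endoderm also expresses Sox17, Foxa2, Cer1 and Hhex, which is why the rule needs a limit on serum-protein transcripts.

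Start-site windows are shown for 2 genes of the rule and for Gpx2, the named gene with the highest fold change against other cells. Each window runs from 250 bases before to 50 bases after the start of the RefSeq gene on GRCm38.p6, all on the minus strand, at chr4:82885102-82885401 for Cer1, chr6:92244601-92244900 for Trh and chr12:76795505-76795804 for Gpx2. Capitals mark matches, on either strand, to the forkhead motif TGTTTNC.
Cer1: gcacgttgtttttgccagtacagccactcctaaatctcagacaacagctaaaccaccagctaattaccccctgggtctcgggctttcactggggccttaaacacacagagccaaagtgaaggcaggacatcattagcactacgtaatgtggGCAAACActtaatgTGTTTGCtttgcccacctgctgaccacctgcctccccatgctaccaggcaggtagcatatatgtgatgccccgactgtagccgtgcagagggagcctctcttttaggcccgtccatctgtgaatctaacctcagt
Trh: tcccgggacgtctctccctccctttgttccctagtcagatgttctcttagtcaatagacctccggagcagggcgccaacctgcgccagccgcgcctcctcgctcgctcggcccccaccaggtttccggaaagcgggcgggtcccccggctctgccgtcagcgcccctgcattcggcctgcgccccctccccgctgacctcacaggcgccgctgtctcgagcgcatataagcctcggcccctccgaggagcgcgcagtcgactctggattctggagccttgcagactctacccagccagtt
Gpx2: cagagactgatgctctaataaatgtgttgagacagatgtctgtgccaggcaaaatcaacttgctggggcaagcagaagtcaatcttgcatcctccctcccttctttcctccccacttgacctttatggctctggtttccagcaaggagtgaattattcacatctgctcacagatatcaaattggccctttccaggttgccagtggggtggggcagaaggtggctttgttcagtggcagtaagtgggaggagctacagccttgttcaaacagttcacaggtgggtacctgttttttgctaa
The Cer1 window held 2 forkhead matches, and the Trh and Gpx2 windows held 0. Of 32851 such windows, 20.5% held at least 1 forkhead match. The GATA motif AGATAA, the SOX motif CATTGT and the FOXH1 motif AATNCACA, which lie in 11.2%, 12.6% and 3.6% of windows, were in none of the 3. These matches describe letters in a window and not bound sites.

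The share of definitive endoderm cells was highest at E7.0. At E7.0 they made up 604 of 7941 kept cells, or 7.61%, with an exact binomial (Clopper-Pearson) 95% interval of 7.03 to 8.21%. The E7.25 library had 160 of 5194 (3.08%, interval 2.63 to 3.59%), and E7.5 posterior had 238 of 8438 (2.82%, interval 2.48 to 3.20%). The E7.0 interval lay above the others, and the intervals of the other libraries overlapped each other. Intervals cover counting error only. The E7.0 cells were also deeper, with a median of 12042.5 UMIs per definitive endoderm cell, against 9406 in the E7.25 library and 10509.5 in E7.5 posterior. When every cell was thinned to 5000 UMIs, the shares were 5.73%, 2.05% and 2.11%. With Sox17 required at 2 or more UMIs they were 5.92%, 1.56% and 1.98%, so the share at E7.0 stayed above the others under both rules.

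**Figure D1:**
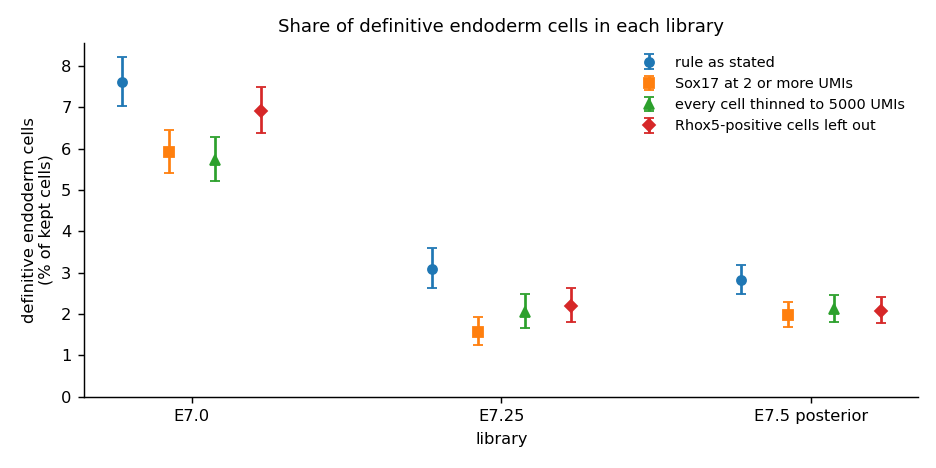
Share of definitive endoderm cells among kept cells in each library, with exact 95% binomial intervals for counting error, under the stated rule and under 3 alternatives (Sox17 at 2 or more UMIs, every cell thinned to 5000 UMIs, Rhox5-positive cells left out). The lowest share in the first library is 5.73%, and the shares in the later libraries lie between 1.56% and 3.08%.

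The second genes of the rule were not carried in the same proportions at each stage. Cer1 was detected in 83.1%, 73.1% and 67.6% of definitive endoderm cells, Foxa2 in 66.6%, 48.1% and 66.8%, Hhex in 60.4%, 27.5% and 23.5%, and Trh in 71.9%, 87.5% and 88.7%. Thus Hhex was most often detected at E7.0 and Trh at the later stages. After thinning to 5000 UMIs, Hhex was detected in 37.0%, 14.5% and 12.9% of the 567, 152 and 225 cells deep enough, and Trh in 55.9%, 75.7% and 80.0%, so the opposite orders remained. All 4 second genes were present in 26.8%, 11.9% and 12.2% of cells. Only 1 of them was present in 75, 32 and 44 cells, among which Trh was that gene in 40, 23 and 31.

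Levels of the rule genes are given as CPM, the summed UMIs of a gene in a cell class for every 1000000 summed UMIs of that class. Sox17 stood at 336, 156 and 256 CPM in definitive endoderm cells, against 13.7, 11.1 and 6.98 CPM in all other kept cells. Trh stood at 395, 629 and 783 CPM, against 93.8, 58.3 and 53.7 CPM in the other cells. Hhex stood at 96.3, 30.3 and 31.2 CPM in definitive endoderm cells, against 9.30, 5.98 and 4.01 CPM in the other cells. Within these chosen cells, Sox17 and Hhex were highest at E7.0 and Trh was highest at E7.5 posterior.

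Low detection of the rule genes elsewhere sets how firmly single cells can be read. After thinning, Sox17 was found in 76.5%, 66.4% and 76.4% of definitive endoderm cells, against 1.65%, 1.91% and 0.858% of mesoderm cells (Mesp1 at 3 or more UMIs; median 12279, 9116 and 9969 UMIs per cell). The rule required Sox17 in the first class, so its shares are a description. The 3108, 1159 and 2321 mesoderm cells included 62, 29 and 20 definitive endoderm cells. Their Sox17 shares therefore do not measure detection outside the class. Trh was less specific, since it was found in 39.1%, 20.6% and 16.6% of epiblast cells (Pou3f1 present and Eomes, T, Mesp1 and Mixl1 at 0; median 10444, 8369 and 10141 UMIs). In 134, 79 and 71 definitive endoderm cells the Sox17 count was exactly 1, which is 22.2%, 49.4% and 29.8% of them. Cells just inside the serum-protein limit (0.08 to 0.1%) numbered 11, 3 and 13, and candidates just outside it (0.1 to 0.12%) numbered 7, 4 and 7. Among cells without Sox17, 2593, 908 and 1899 had at least 1 of the 4 second genes.

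Markers that the rule did not use went with the endoderm label for some genes and not for others. Foxa1 was detected, after thinning, in 4.41%, 5.92% and 14.7% of definitive endoderm cells, against 0.920%, 0.684% and 1.01% of other kept cells. Krt7 was detected in 11.5%, 16.4% and 16.4% of definitive endoderm cells, against 3.71%, 3.20% and 2.18% of other cells. Prdm1 was detected in 6.0%, 5.26% and 6.67%, against 0.651%, 1.26% and 0.591%. Cxcr4, the chemokine receptor often used to sort definitive endoderm, was found in 4.23%, 1.97% and 2.22% of these cells and in 4.47%, 1.73% and 2.44% of mesoderm cells, so it did not set them apart at this depth. Pyy, a hormone gene of later gut endoderm, had 0 cells in each library after thinning, which allows shares of cells with a UMI of up to 0.529%, 1.97% and 1.33% (3 counts of the thinned cells).

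Markers of some other cell types summed to lower levels than in the rest of the library, and those of others did not. The 9 visceral endoderm genes outside the rule summed to 35.6, 66.5 and 109 CPM in definitive endoderm cells, against 4144, 4934 and 4431 CPM in Sox17-positive visceral endoderm cells, and Apoa2 was at 0 in definitive endoderm cells of E7.5 posterior. The 4 nascent mesoderm markers summed to 145, 290 and 100 CPM in definitive endoderm cells, against 674, 316 and 356 CPM in other kept cells, with Msgn1 at 0 in definitive endoderm cells of E7.5 posterior. The 6 epiblast markers summed to 758, 593 and 527 CPM, against 1046, 913 and 934 CPM in other kept cells. The 5 node and notochord markers summed to 21.1, 10.4 and 32.8 CPM, against 28.9, 15.3 and 27.7 CPM. The 6 blood and endothelium genes, with Cdh5 at 0 in the E7.0 and E7.25 classes, summed to 29.2, 95.8 and 30.3 CPM, against 60.7, 72.6 and 41.9 CPM. The 5 extraembryonic ectoderm markers summed to 33.4, 158 and 140.5 CPM, against 173, 334 and 57.7 CPM, with Esrrb at 0 at E7.0 and Elf5, Esrrb and Wnt7b at 0 at E7.5 posterior. The 4 parietal endoderm markers, with Thbd at 0 in each library, summed to 42.2, 45.7 and 72.2 CPM, against 37.3, 47.5 and 34.1 CPM. Thus blood and endothelium markers at E7.25 and parietal endoderm markers at E7.0 and E7.5 posterior were at higher sums than in other kept cells. At E7.5 posterior the node and notochord sum and the extraembryonic ectoderm sum were also higher. In the extraembryonic ectoderm sum, Rhox5 alone held 443 of the 446 UMIs, so that sum reads 1 gene. In Sox17-positive visceral endoderm cells of E7.5 posterior the same set summed to 710 CPM, with Elf5, Tfap2c, Esrrb and Wnt7b at 0. Some cells met a second rule: 62, 29 and 20 also had Mesp1 at 3 or more UMIs (10.3%, 18.1% and 8.40%), 15, 2 and 5 had Noto, a node gene, and 26, 19 and 7 had at least 2 of 6 blood and endothelium genes (4.30%, 11.9% and 2.94%). Predicted doublets were 11.6%, 7.5% and 11.8% of definitive endoderm cells, against 6.35%, 4.16% and 6.76% of all kept cells. A further set, the Rhox5-positive cells described at the end, made up 9.11%, 28.8% and 26.5%. The part of these cells in each result was not tested beyond leaving each set out.

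Against all other kept cells, definitive endoderm cells had more of some signalling inhibitors, keratins and endoderm transcription factors, and less of the genes of migrating mesoderm. Of these, Dkk1, Lefty1, Cyp26a1, Gata6, Krt8 and Krt18 were called higher here but not against Sox17-positive visceral endoderm cells. Sfrp1, Shisa2, Foxa1, Gsc, Lhx1 and Krt7 were called higher in both comparisons. Genes of the absorptive visceral endoderm were lower too, a direction that the choice of cells largely fixes. Of 14049 genes tested, 214 were higher (1.52%) and 257 lower (1.83%) at an adjusted p under 0.05 and at least a 2-fold change in edgeR's quasi-likelihood test with library as a block. Gpx2, a glutathione peroxidase known from gut epithelium, had 12.8, 60.6 and 102 CPM in definitive endoderm cells, with Poisson intervals of 10.6 to 15.4, 50.8 to 71.7 and 91.6 to 114, against 1.44, 3.15 and 2.98 CPM in other cells. Its log2 fold change was 4.26 ± 0.29 (SE; edgeR adjusted p = 4.74e-05), with no overlap between the classes in any library. Kitl, the ligand of the KIT receptor on germ and blood cells, had 51.2, 77.3 and 158 CPM, against 12.4, 12.8 and 14.4 CPM in other cells, a log2 fold change of 2.73 ± 0.21 (edgeR adjusted p = 6.98e-05). Upp1, which encodes a uridine phosphorylase, had 562, 212 and 173 CPM, against 91.8, 57.1 and 40.7 CPM, with a log2 fold change of 2.24 ± 0.14 (edgeR adjusted p = 4.19e-05). Gpx2 and Kitl were highest at E7.5 posterior and Upp1 at E7.0, and each was higher than in other cells in 3 of 3 libraries. Genes named for their fold change, here and in later contrasts, were picked among called genes with 1 direction in every library. For them such agreement was set by that choice and is a description. The share of all genes without overlap between classes is not given here.

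The signalling inhibitors included Dkk1, a secreted protein that binds WNT co-receptors. Dkk1 had 157, 69.2 and 127 CPM in definitive endoderm cells, against 22.7, 15.2 and 21.2 CPM in other cells (log2 fold change 2.57 ± 0.13, edgeR adjusted p = 1.04e-05). Sfrp1, a WNT-binding protein, had 202, 174 and 156 CPM, against 49.6, 65.3 and 47.8 CPM (1.76 ± 0.12, edgeR adjusted p = 5.01e-05). Shisa2, which retains FGF and WNT receptors inside the cell, had 34.7, 21.7 and 39.1 CPM, against 4.96, 5.13 and 6.84 CPM (2.54 ± 0.17, edgeR adjusted p = 4.74e-05). The 3 inhibitors were higher in each library, and their ranges over libraries did not overlap those of other cells. Lefty1, an inhibitor of NODAL, was mainly an E7.0 transcript with 49.1, 0.904 and 1.89 CPM, against 3.33, 0.440 and 0.177 CPM; its log2 fold change of 3.53 ± 0.39 passed (edgeR adjusted p = 0.000771) but not without E7.0, at 2.44 (0.0849). Of the 14 measured endoderm surface and secreted genes, 9 rose and 0 fell, with a median log2 fold change of 1.44, beside -0.02 over all genes tested.

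Among endoderm transcription factors, 5 of 10 measured genes rose and 2 fell, with a median of 1.22. Foxa1, a forkhead factor of gut epithelium, had 8.53, 9.95 and 34.0 CPM in definitive endoderm cells, against 2.43, 1.56 and 2.09 CPM in other cells (log2 fold change 2.89 ± 0.37, edgeR adjusted p = 0.00176). Gata6, a zinc-finger factor of endoderm and heart, had 113, 41.1 and 44.1 CPM, against 35.9, 26.5 and 18.2 CPM (1.27 ± 0.17, edgeR adjusted p = 0.0021). Gsc and Lhx1, homeobox genes of the anterior streak, were also higher. Gsc had 157, 20.3 and 4.73 CPM in definitive endoderm cells, against 32.7, 3.10 and 1.99 CPM in other cells (2.25 ± 0.22, edgeR adjusted p = 0.000351). Lhx1 had 1085, 157 and 146 CPM, against 372, 59.1 and 65.8 CPM (1.41 ± 0.12, edgeR adjusted p = 0.000145). The genes that fell were Hnf4a and Gata4, both factors of visceral endoderm. The serum-protein limit leaves visceral endoderm cells among the other kept cells. The choice of cells thus favours this direction, and neither fall is read as a result. Hnf4a had 0.898, 0.452 and 0.630 CPM in definitive endoderm cells, against 9.35, 21.4 and 4.73 CPM. Gata4 fell by 1.10 on the log2 scale (edgeR adjusted p = 0.0122), a call lost without E7.25, at -0.87 (0.0635), and without Rhox5-positive cells, at -0.95. Eomes, which acts upstream of endoderm in the streak, did not pass, at 143, 35.7 and 40.3 CPM against 154, 45.9 and 40.5 CPM.

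Keratins and junction genes were raised against other kept cells, with 5 of 16 measured members of the epithelial list higher and 0 lower (median log2 fold change 0.74). Krt8 had 532, 867 and 1064 CPM in definitive endoderm cells, against 171, 342 and 151 CPM in other cells (1.96 ± 0.21, edgeR adjusted p = 0.000723). Krt18, its filament partner, had 431, 906 and 1163 CPM, against 207, 401 and 166 CPM (1.70 ± 0.26, edgeR adjusted p = 0.00462). Both keratins were higher in each library, by the widest margin at E7.5 posterior. Cldn6, a tight junction protein, passed at 1.05 ± 0.24 (edgeR adjusted p = 0.0315) but fell short of 2-fold without E7.5 posterior, at 0.58, and lost the call with predicted doublets removed (adjusted p = 0.0701). Cdh1, at 0.55, and Epcam, at 0.49, were higher in 3 of 3 libraries without reaching 2-fold.

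Genes of mesoderm and of cells leaving the streak were lower. Of 11 measured mesoderm genes, 9 fell and 0 rose (median log2 fold change -1.43), and of 9 genes of the epithelial to mesenchymal transition list, 4 fell and 0 rose (median -0.82). Zeb2, a repressor of Cdh1, had 13.7, 21.7 and 11.3 CPM in definitive endoderm cells, against 40.5, 47.3 and 57.3 CPM in other cells (-1.62 ± 0.20, edgeR adjusted p = 0.0016). Pdgfra, a growth factor receptor of mesoderm, had 6.4, 9.04 and 12.3 CPM, against 23.8, 23.7 and 27.8 CPM (-1.49 ± 0.17, edgeR adjusted p = 0.000945). Neither gene's range overlapped between the classes. Mesp1 fell by 1.37 on the log2 scale (edgeR adjusted p = 0.0376), but it lost the call without E7.0 (-0.90) and with predicted doublets removed (-1.93, adjusted p = 0.0907). The epiblast list had 6 of 12 measured genes lower and 1, Fgf5, higher (median -0.97): Pou3f1, a POU factor of epiblast and neural ectoderm, had 42.4, 50.2 and 18.6 CPM in definitive endoderm cells, against 100.2, 89.8 and 52.5 CPM.

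Visceral endoderm genes outside the rule were lower, and 8 of 12 measured genes fell (median -2.71). The choice of cells largely fixes this direction, so these values are a description without a test. The serum-protein limit keeps visceral endoderm cells out of the class and leaves them among the other kept cells. Cubn, the cubilin uptake receptor, had 4.49, 7.23 and 4.41 CPM in definitive endoderm cells, against 87.7, 162 and 45.7 CPM in other cells (log2 fold change -4.10). Dab2, an adaptor of the same uptake route, had 15.4, 24.4 and 38.1 CPM, against 155, 234 and 87.2 CPM (-2.55). Amn, the membrane partner of cubilin, fell by 2.02, and it lost its call without E7.25, at -1.60, and with predicted doublets removed. Among cell cycle and stress lists, 0 of 17 replication genes, 0 of 17 mitosis genes, 0 of 14 glycolysis genes and 0 of 8 immediate early and heat shock genes passed. With predicted doublets removed, 11 calls of list or named genes against other kept cells ended (Aldh1a2, Amn, Cldn6, Crabp2, Fgf3, Fgf15, Foxf1, Mesp1, Slc7a3, Snai1 and Wnt3), and without Rhox5-positive cells those of Gata4 and Slc7a3 ended. Counts of calls depended on the fit: 70 genes were higher and 32 lower without library as a block, and 139 and 165 with plain library totals.

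**Figure D2:**
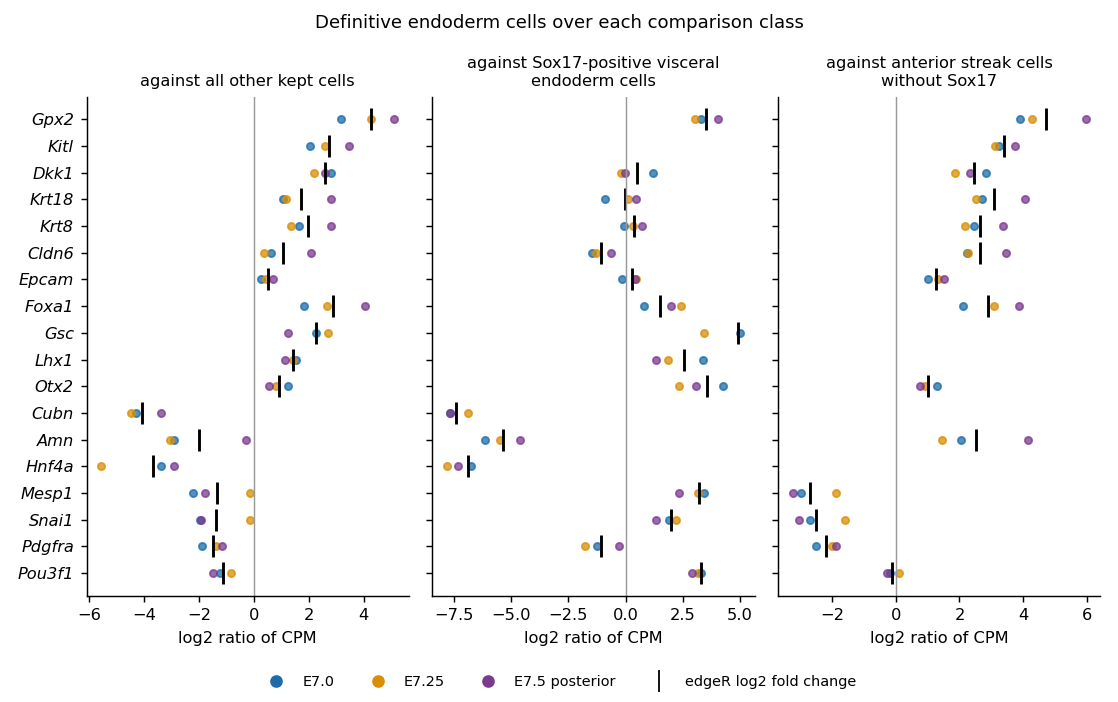
Log2 ratio of CPM of definitive endoderm cells over each of 3 comparison classes, for a set of genes, with 1 point per library and a black bar at the edgeR log2 fold change. Gpx2 lies right of 0 in each panel, Cubn, Amn and Hnf4a lie left of 0 against all other cells and against visceral endoderm, and Snai1 and Mesp1 lie right of 0 against visceral endoderm and left of 0 against streak cells.

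Set against Sox17-positive visceral endoderm, definitive endoderm cells had more of the streak, epiblast and mesenchymal transcripts and less of the visceral endoderm and basement membrane ones, while Krt18 and Cdh1, which encode keratin 18 and E-cadherin, did not pass the test. The visceral endoderm class had Sox17, a second endoderm gene and at least 1% of UMIs on the 6 serum-protein genes, with 174, 111 and 68 cells. Of 9790 genes tested, 1043 were higher (10.7%) and 1482 lower (15.1%) in definitive endoderm cells. Upp1 had 562, 212 and 173 CPM in definitive endoderm cells, against 4.90, 21.5 and 6.17 CPM in visceral endoderm (log2 fold change 5.37 ± 0.41, edgeR adjusted p = 3.03e-07). Otx2, a homeobox gene of anterior tissues, had 206, 103 and 83.2 CPM, against 10.8, 20.5 and 9.87 CPM (3.55 ± 0.28, edgeR adjusted p = 3.56e-07). Gpx2 also separated the 2 endoderm classes, at 1.31, 7.46 and 6.17 CPM in visceral endoderm (3.51 ± 0.26, edgeR adjusted p = 2.12e-07). The ranges of Upp1, Otx2 and Gpx2 over libraries did not overlap between the classes.

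Of 11 measured streak genes, 9 were higher in definitive endoderm cells than in visceral endoderm and 1, Wnt3, was lower (median 2.13, beside 0.02 over all genes). Tdgf1, the co-receptor of NODAL known as Cripto, had 355, 71.9 and 41.0 CPM in definitive endoderm cells, against 8.16, 5.60 and 0 CPM in visceral endoderm. Lhx1 had a log2 fold change of 2.56 ± 0.30 (edgeR adjusted p = 1.4e-05), T, the streak factor brachyury, of 1.87 ± 0.28 (9.82e-05), and Eomes of 1.31 ± 0.17 (3.57e-05). Of 10 measured epiblast genes, 5 rose and 1 fell (median 1.31), and of 8 measured genes of the mesenchymal list, 5 rose and 1 fell (median 1.40). Vim, an intermediate filament of mesenchyme, had 112, 132 and 119 CPM, against 10.4, 27.1 and 17.3 CPM (2.97 ± 0.20, edgeR adjusted p = 9.92e-08). Cdh2, the neural cadherin, had 91.9, 41.6 and 52.6 CPM, against 19.9, 8.40 and 7.40 CPM (2.41 ± 0.20, edgeR adjusted p = 5.22e-07). Mesp1 rose by 3.21 here, but its value was -0.32 once cells that also met the mesoderm, node or epiblast rule were left out, and Zeb2 (0.70), Lefty2 (0.88), Hoxb1 (0.31), Pkm (0.97), Lama5 (-0.90), Cldn7 (-0.94) and Cldn6 (-0.80) lost their calls in the same way. Without cells that had 2 or more blood and endothelium genes, Hoxb1 (1.10), Lama5 (-0.95) and Cldn6 (-0.97) lost theirs, and without Rhox5-positive cells Hoxb1 (0.84), Pdgfra (-0.98) and Unc5b (-0.92) did.

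Cyclins also differed between the 2 endoderm classes. Ccnd1 had 135, 140 and 139 CPM in definitive endoderm cells, against 10.1, 24.3 and 9.87 CPM in visceral endoderm (3.41 ± 0.21, edgeR adjusted p = 4.67e-08). Ccnd2 had 60.6, 151 and 157 CPM, against 5.88, 18.7 and 12.3 CPM (3.39 ± 0.18, edgeR adjusted p = 1.23e-08). Both genes encode cyclins that drive entry into S phase, yet 2 of 17 replication genes (Dut and Rrm2) rose and 0 of 17 mitosis genes passed. Of 9 measured immediate early and heat shock genes, 5 rose, among them Fos (2.07) and Jun (1.39).

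Visceral endoderm genes were lower in definitive endoderm cells for each of the 14 list genes that reached 20 CPM (median -5.73). The choice of cells fixes this direction, since the classes were set apart by under 0.1% and at least 1% of UMIs on serum-protein genes and the list genes reach 20 CPM through visceral endoderm, so these values are a description without a test. Hnf4a, the nuclear receptor that drives many serum-protein genes, had 0.898, 0.452 and 0.630 CPM in definitive endoderm cells, against 96.0, 101 and 102 CPM in visceral endoderm. Spink1, a trypsin inhibitor, had 330, 533 and 1500.2 CPM, against 10629, 5518 and 10499 CPM. Creb3l3, a liver-type transcription factor, had 1 UMI in definitive endoderm cells of E7.0 and 0 in those of the later libraries, against 105, 119 and 72.8 CPM in visceral endoderm. Of 11 measured basement membrane genes, 7 fell and 0 rose (median -1.32), with Col4a1, a collagen IV chain, at 37.4, 74.1 and 108 CPM in definitive endoderm cells, against 240.2, 309 and 281 CPM (-1.99 ± 0.18, edgeR adjusted p = 1.6e-06).

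Of 16 measured epithelial genes, 5 passed against visceral endoderm, 2 of them higher and 3 lower (median -0.13). Krt18 had 431, 906 and 1163 CPM in definitive endoderm cells, against 795, 832 and 851 CPM in visceral endoderm, with a log2 fold change of -0.04 ± 0.18 (edgeR adjusted p = 0.887). Cdh1 had a log2 fold change of -0.05 ± 0.16 (edgeR adjusted p = 0.8) and Epcam of 0.29 ± 0.13 (0.0784). Krt7 rose by 1.72 (edgeR adjusted p = 8.74e-05). Krt19 rose by 1.13 (edgeR adjusted p = 0.00174), but its direction turned, to -1.43, when Rhox5-positive cells were left out, and it was just below 2-fold with predicted doublets removed (0.997) and below it without E7.25 (0.90) and without E7.5 posterior (0.92).

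Against anterior streak cells without Sox17, definitive endoderm cells had higher levels of epithelial genes and lower levels of mesoderm genes. The streak class had Sox17 at 0, at least 2 of Eomes, Mixl1, Gsc and Lhx1, and the same serum-protein limit; it held 3172, 476 and 1035 cells, of which 73.6%, 69.3% and 68.8% also had Mesp1 at 3 or more UMIs, so it was largely nascent mesoderm. Of 11414 genes tested, 511 were higher (4.48%) and 327 lower (2.86%) in definitive endoderm cells. Of 16 measured epithelial genes, 13 rose and 0 fell (median 1.89, beside -0.02 over all genes). Krt18 had 431, 906 and 1163 CPM in definitive endoderm cells, against 66.3, 156 and 70.3 CPM in streak cells (3.08 ± 0.20, edgeR adjusted p = 9.44e-08). Cldn6 had 141, 160.5 and 293 CPM, against 29.9, 33.3 and 26.7 CPM (2.65 ± 0.16, edgeR adjusted p = 7.82e-08). Epcam, an epithelial adhesion molecule, had 342, 297 and 375 CPM, against 172, 119.7 and 131 CPM (1.26 ± 0.09, edgeR adjusted p = 2.34e-07). Crb3, a protein of the apical polarity complex, rose by 2.96 ± 0.19, Cldn7 by 2.49 ± 0.15 and Esrp1, an epithelial splicing factor, by 1.30 ± 0.13. Krt18, Cldn6 and Epcam were higher in 3 of 3 libraries with no overlap between the classes. Krt19 rose by 2.71, but by 0.14 and without a call when Rhox5-positive cells were left out, and Cdh1 rose by 1.12 but by 0.96 without E7.5 posterior. The call of Tdgf1, which was lower than in streak cells, also ended without Rhox5-positive cells (-0.76), and that of Rhox5 itself ended with predicted doublets (1.24), mesoderm, node and epiblast cells (1.34) or cells with blood and endothelium genes (1.40) left out.

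In the opposite direction, 6 of 9 mesenchymal genes fell and 0 rose (median -1.33), and 13 of 14 mesoderm genes fell (median -2.23), a list that overlaps with how the streak class was made up, since most of its cells carried Mesp1. Snai1, the repressor of Cdh1 that starts the transition, had 13.2, 21.7 and 9.45 CPM in definitive endoderm cells, against 86.7, 65.9 and 77.4 CPM in streak cells (-2.51 ± 0.18, edgeR adjusted p = 2.28e-07). Lefty2, which encodes an inhibitor of NODAL, had 37.5, 35.7 and 24.6 CPM, against 254, 175 and 259 CPM (-2.83 ± 0.15, edgeR adjusted p = 1.87e-08). T had 54.9, 101 and 69.3 CPM, against 158, 385 and 453 CPM (-2.04 ± 0.16, edgeR adjusted p = 6.91e-07). Each of the 3 genes was lower in 3 of 3 libraries, without overlap. Cdh2 did not pass, at a log2 fold change of -0.11 (edgeR adjusted p = 0.623), and neither did Vim, at 0.49 (0.0115, under 2-fold), so the mesenchymal list did not fall as a whole. The gut regional list had 6 of 7 measured genes lower and 1, Otx2, higher; the lower ones were Cdx2, Foxf1, Foxj1, Gata4, Hoxb1 and Hoxb2, which posterior and mesodermal cells also express.

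Endoderm genes separated the 2 streak-derived classes with 11 of 14 surface and secreted genes higher and 0 lower (median 2.19). Foxa3, a forkhead factor of the same family as Foxa1 and Foxa2, had 6.4, 14.0 and 35.0 CPM in definitive endoderm cells, against 1.25, 2.13 and 1.71 CPM in streak cells (3.14 ± 0.31, edgeR adjusted p = 5.72e-06). Kitl had 5.36, 8.90 and 11.8 CPM in streak cells, a log2 fold change of 3.40 ± 0.12 (edgeR adjusted p = 3.65e-10). Apela, a peptide ligand of the apelin receptor, had 30.2, 81.4 and 159 CPM, against 13.1, 13.9 and 16.9 CPM (2.26 ± 0.25, edgeR adjusted p = 1.61e-05). The receptor gene Aplnr ran the other way, at 11.7, 19.4 and 14.5 CPM in definitive endoderm cells, against 40.1, 61.3 and 60.3 CPM (-1.84 ± 0.12, edgeR adjusted p = 1.19e-07), and so did Apln, which encodes the other ligand (-2.04 ± 0.16, 6.89e-07). Spink1 had 330, 533 and 1500.2 CPM, against 39.6, 69.4 and 27.1 CPM (3.87 ± 0.37, edgeR adjusted p = 4.26e-06), and the value was 2.42 without Rhox5-positive cells. Of 6 measured visceral endoderm list genes, 5 rose (median 2.16), among them Spink1, Ctsh and Amn, and 3 of these 5 calls (Ctsh at 0.27, Apom at -0.27 and Xlr3a at -0.044) ended without the Rhox5-positive cells. Xlr3a belongs to a family of near-identical X-linked genes, so its counts are uncertain.

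Signalling lists moved by member and not as blocks. In the WNT list, Dkk1, Sfrp1, Shisa2 and the receptor Fzd8 were higher in definitive endoderm cells than in other kept cells and than in streak cells, while Lef1, a nuclear effector of the pathway, and the ligand Wnt3 were lower in both, for 4 higher and 2 lower of 13 measured against other cells and 4 and 4 of 15 against streak cells. In the FGF list, 1 of 11 rose and 2 fell against other cells, and 0 of 13 rose and 4 (Fgf3, Fgf4, Fgf15 and Spry2) fell against streak cells. In the BMP list, the ligand Bmp7 was higher than in other cells and Bmp4, Id2 and Msx1 lower, of 11 measured. For retinoic acid, Cyp26a1, the enzyme that breaks it down, had 168, 61.0 and 58.9 CPM in definitive endoderm cells, against 111, 26.8 and 25.2 CPM in other cells (log2 fold change 1.01 ± 0.13, edgeR adjusted p = 0.00162), just over 2-fold and under it without E7.25 (0.90) or E7.5 posterior (0.88). Aldh1a2, which makes retinoic acid, fell by 2.22 (edgeR adjusted p = 0.0271), and it was -0.76 (0.498) without E7.5 posterior; with predicted doublets removed the adjusted p was 0.0555 for Aldh1a2 and 0.0703 for Wnt3.

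Within the definitive endoderm cells, those with Hhex carried more Lhx1 and Gsc and those with Trh less of both. Hhex and Trh belong to the rule, so a cell without one of them must carry another second gene; their own levels and those of Foxa2 and Cer1 are not read as results. The splits divide the same cells by genes of the same rule, so opposite directions in them are not independent of each other. Each split was therefore also fitted in the 552, 127 and 202 cells with Foxa2 or Cer1, which meet the rule with or without Hhex and Trh, an alternative chosen after seeing the data. Hhex-positive cells numbered 365, 44 and 56 and Hhex-negative cells 239, 116 and 182, and of 8888 genes tested 20 were higher (0.225%) and 25 lower (0.281%) in Hhex-positive cells. Lhx1 had 1449, 314 and 325 CPM in Hhex-positive cells, against 506, 85.6 and 84.2 CPM in Hhex-negative cells (log2 fold change 1.67 ± 0.07, edgeR adjusted p = 4.68e-22). Gsc had 215, 44.7 and 9.89 CPM, against 64.5, 9.22 and 2.96 CPM (1.79 ± 0.12, edgeR adjusted p = 7.32e-14). Bmp2, a ligand of early endoderm, had 33.8, 40.4 and 38.3 CPM, against 9.59, 13.2 and 11.8 CPM (1.74 ± 0.19, edgeR adjusted p = 1.83e-08). These 3 genes were higher in Hhex-positive cells of each library, and Bmp2 did not overlap between the subsets. Among cells with Foxa2 or Cer1 their log2 fold changes were 1.36, 1.44 and 1.34 and kept their calls, and 12 genes were higher and 13 lower. Of 11 measured streak genes, 2 rose and 0 fell with Hhex (median 0.60). Of 7 measured anterior visceral endoderm genes, 3 rose (Lhx1, Lefty1 and Hesx1) and 0 fell (median 1.0); the call of Hesx1 was lost without E7.0 (0.0543), without E7.5 posterior (0.151), without Rhox5-positive cells (0.0683) and among cells with Foxa2 or Cer1 (0.0646). Fzd5 and Shisa2 fell below 2-fold without Rhox5-positive cells (0.71 and 0.95), without mesoderm, node and epiblast cells (0.93 and 0.97) and among cells with Foxa2 or Cer1 (0.91 and 0.87), and Fzd5 also with predicted doublets removed (0.93).

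Apela was lower with Hhex, at 20.1, 40.4 and 64.3 CPM in Hhex-positive cells, against 46.2, 100.1 and 192 CPM in Hhex-negative cells (-1.36 ± 0.12, edgeR adjusted p = 3e-10). Of 11 measured epiblast genes, 5 fell and 0 rose. Utf1, a chromatin factor of epiblast, had 28.5, 60.5 and 16.1 CPM, against 125, 73.8 and 34.7 CPM (-1.66 ± 0.18, edgeR adjusted p = 9.82e-09). The 5 epiblast calls (Utf1, Pou3f1, Pim2, Sox2 and Slc7a3) were lost without E7.0, where they stood at -0.56, -0.45, -0.55, 0.042 and -1.13, with adjusted p of 0.353 or more. They were also lost among cells with Foxa2 or Cer1, at -0.55, -0.34, -0.32, -0.23 and -0.23 (edgeR adjusted p of 0.158 or more), while Apela was -1.39 there and kept its call. The 3 measured blood and endothelium genes were also higher in Hhex-positive cells, where Hhex is itself expressed in blood and vessel progenitors. Kdr, a receptor of those progenitors, had 7.13, 51.9 and 21 CPM, against 4.94, 5.27 and 3.38 CPM (2.01 ± 0.35, edgeR adjusted p = 0.000207); without E7.25 the call was lost for Kdr (1.32, 0.0634) and for Etv2 (1.05, 0.0682), and among cells with Foxa2 or Cer1 it was lost for Kdr (0.80), Etv2 (0.86) and Tal1 (1.44, 0.51). Of the 26, 19 and 7 cells with at least 2 blood and endothelium genes, 15, 9 and 3 were Hhex-positive. Of 16 epithelial genes, 0 passed in either direction.

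Trh-positive cells numbered 434, 140 and 211 and Trh-negative cells 170, 20 and 27, and of 9164 genes tested 43 were higher (0.469%) and 15 lower (0.164%) in Trh-positive cells. Lhx1 had 844, 122 and 109 CPM in Trh-positive cells, against 1786, 580.2 and 496 CPM in Trh-negative cells (-1.68 ± 0.13, edgeR adjusted p = 1.68e-20). Apela had 37.2, 86.8 and 172 CPM, against 9.65, 17.4 and 36.9 CPM (2.07 ± 0.23, edgeR adjusted p = 6.14e-12). Kitl had 61.4, 81.9 and 167 CPM, against 21.5, 23.2 and 70.4 CPM (1.44 ± 0.19, edgeR adjusted p = 1.13e-08). Lhx1 was lower and Apela and Kitl were higher with Trh in 3 of 3 libraries. Among cells with Foxa2 or Cer1 their log2 fold changes were -1.61, 1.95 and 1.54, each called, and 49 genes were higher and 10 lower. Gpx2 rose by 1.78 ± 0.28 (edgeR adjusted p = 2.92e-06) and Spink1 by 2.06 ± 0.19 (1.17e-15). Of 10 measured streak genes, 4 fell (Gsc, Lhx1, Mixl1 and Tdgf1) and 0 rose (median -0.82), of which Gsc was -1.94 without E7.0 (0.0503), Mixl1 -1.26 without E7.0 (0.732) and Tdgf1 below 2-fold without E7.25 (-0.97), E7.5 posterior (-0.90) or Rhox5-positive cells (-0.86).

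Several other Trh calls were not stable to the cells or libraries included. Krt19, at 1.34, turned to -0.13 without Rhox5-positive cells, where Stard8 (1.09), Col4a2 (1.19), Amn (1.04) and Prss8 (0.93) also lost their calls. Prss8 lost its call as well with predicted doublets removed (1.08, 0.0508). Rhox5 itself rose by 1.2 (edgeR adjusted p = 0.000226) and lost the call without E7.25 (0.97), E7.5 posterior (0.64), the mesoderm, node and epiblast cells (0.95) or the cells with blood and endothelium genes (0.996). Crb3 and Lefty2 also lost theirs without mesoderm, node and epiblast cells, and Dlc1, Lefty2 and Prss8 without cells with blood and endothelium genes. Fgfbp1, which releases FGF ligands from the matrix, rose by 2.17 ± 0.34 (1.96e-06), and by 1.40 without E7.5 posterior (0.189). The blood and endothelium genes Kdr, Etv2 and Tal1 were lower with Trh, and Etv2, at -1.64, was -0.48 (0.941) once cells with 2 or more such genes were left out. Among cells with Foxa2 or Cer1, the calls of Utf1, Pim2, Pou3f1, Kdr, Etv2, Dlc1, Tdgf1, Lefty2 and Prss8 ended, with Tdgf1 at -0.999 just under 2-fold. Hhex-positive cells were deeper than Hhex-negative cells (median 13004, 10178 and 12261.5 UMIs, against 11039, 9130 and 9818) and Trh-positive cells deeper than Trh-negative cells (12370.5, 9665.5 and 10793 UMIs, against 11701, 7072.5 and 9527); the part of depth was not tested. Without library as a block, edgeR called 0 genes in either direction for both splits (143 and 385 genes at an unadjusted p under 0.05), and DESeq2 called 9 and 3 for Hhex and 7 and 7 for Trh.

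**Figure D3:**
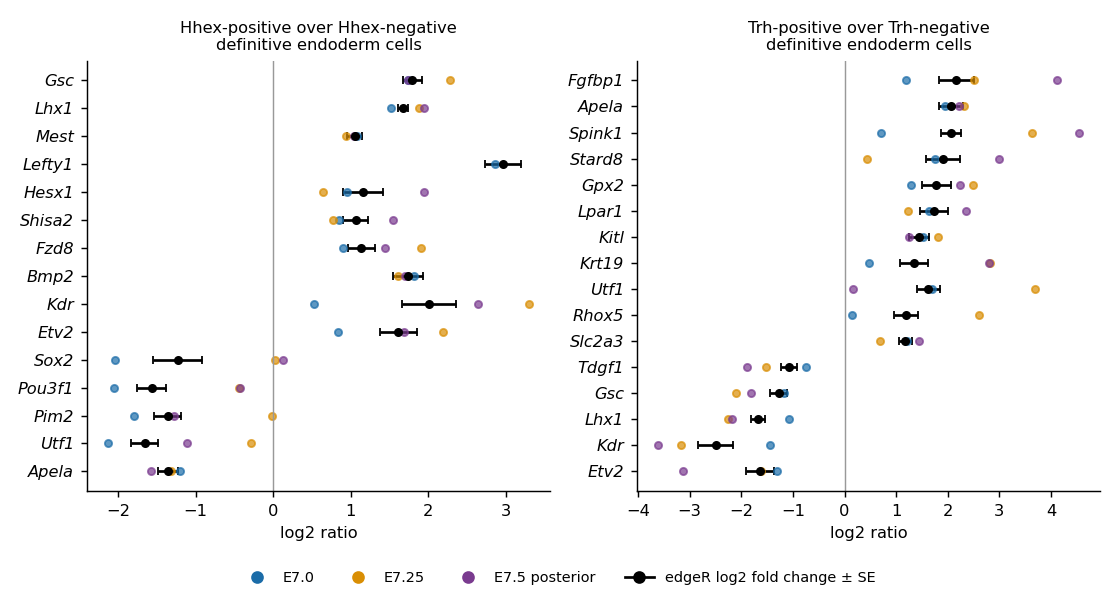
Log2 ratio of CPM of Hhex-positive over Hhex-negative cells (left) and of Trh-positive over Trh-negative cells (right), all definitive endoderm cells; coloured points are libraries, black points and bars are the edgeR log2 fold change with its standard error. Lhx1 and Gsc lie right of 0 on the left and left of 0 on the right, and Apela the other way round. A library in which 1 of the subsets has 0 UMIs has no coloured point.

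Between stages, definitive endoderm cells of the later libraries had far less of the anterior streak genes and more keratin and basement membrane transcripts, while endoderm genes moved in both directions. There is no test here: a gene is counted when its CPM differs at least 2-fold and reaches 50 CPM in 1 of the libraries, and intervals are conditional binomial intervals for counting error. In the comparison of E7.5 posterior with E7.0, 92 of 2956 genes were higher (3.11%) and 32 lower (1.08%). With E7.25 set against E7.0, 65 of 2925 were higher (2.22%) and 71 lower (2.43%), and with E7.5 posterior set against E7.25, 74 of 3037 were higher (2.44%) and 31 lower (1.02%). Scaling by TMM factors, which shifts all log2 ratios by -0.21, -0.16 and -0.05 in this order of comparisons, gave 60 higher and 55 lower, 36 and 120, and 52 and 38. Of the 92 genes that were higher in E7.5 posterior, 2 (2.17%) were also at least 2-fold higher in the other kept cells, whereas 24 of the 32 lower genes (75%) were also lower there.

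The fall of streak genes was seen in these cells and in the rest of each library. Gsc had 157, 20.3 and 4.73 CPM in definitive endoderm cells, a log2 ratio of -5.05 (-5.89 to -4.33) for E7.5 posterior against E7.0, and -4.03 in other kept cells. Lhx1 had 1085, 157 and 146 CPM, a log2 ratio of -2.90 (-3.04 to -2.76), and -2.50 in other cells. Fgf8, a ligand that guides streak cell migration, had 240.3, 21.2 and 32.5 CPM, a log2 ratio of -2.89 (-3.19 to -2.60), and -1.0 in other cells. Most of the drop in Lhx1 and Fgf8 lay between E7.0 and E7.25, and Gsc dropped in both steps. Of 10 measured streak genes, 7 had at least a 2-fold lower level in E7.5 posterior than in E7.0 and 0 a higher one (median -2.24, and -1.41 in other cells, beside -0.01 over all genes in definitive endoderm cells).

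Among the genes that were higher later, Gpx2, Apela and Kitl encode an enzyme and 2 signalling ligands. Gpx2 had 12.8, 60.6 and 102 CPM, a log2 ratio of 3.00 (2.69 to 3.32) for E7.5 posterior against E7.0, and 1.05 in other cells. Apela had 30.2, 81.4 and 159 CPM, a log2 ratio of 2.40 (2.19 to 2.62), and 0.37 in other cells. Kitl had 51.2, 77.3 and 158 CPM, a log2 ratio of 1.62 (1.44 to 1.81), and 0.21 in other cells. Each of the 3 was lowest at E7.0 and highest at E7.5 posterior in definitive endoderm cells. Stard8, which encodes a START-domain protein, had 8.53, 38.4 and 97.7 CPM (3.52, 3.15 to 3.90), and 0.20 in other cells. Cpm, a membrane carboxypeptidase, had 4.38, 21.7 and 53.6 CPM (3.61, 3.10 to 4.15), and -0.03 in other cells. Foxa1 and Foxa3 had log2 ratios of E7.5 posterior over E7.0 of 2.0 and 2.45, against -0.22 and -0.39 in other cells, while Gata6, Hhex and Otx2 were lower, by -1.35, -1.63 and -1.31.

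Genes of the lists were counted from 20 CPM in 1 library, where 4.89% of all 5518 genes were at least 2-fold higher in E7.5 posterior than in E7.0 and 1.2% lower. Of 10 measured endoderm transcription factors, rule genes included, 2 were higher and 5 lower (median -0.85, and -0.93 in other cells), and of 16 surface and secreted endoderm genes 4 were higher and 2 lower (median 0.13, and -0.15 in other cells). For epithelial genes, 7 of 16 epithelial genes had at least a 2-fold higher level in E7.5 posterior than in E7.0 and 0 a lower one (median 0.89, and -0.25 in other cells). Krt18 had a log2 ratio of 1.43 (1.37 to 1.5), and -0.32 in other cells, and Cdh1 of 1.30 (1.11 to 1.49), and 0.49 in other cells. Of 10 basement membrane genes, 6 were higher and 0 lower (median 1.46, and -0.10 in other cells), led in level by Sparc, a collagen-binding matrix protein, at 82.4, 282 and 267 CPM. In Rhox5-positive cells Sparc was at 203, 318 and 441 CPM, against 64.8, 243 and 162 CPM in Rhox5-negative cells. Col4a1 was at 68.0, 49.2 and 154 CPM, against 32.9, 100.5 and 80.7 CPM. The part of the Rhox5-positive cells in this rise was not tested. Of 8 measured immediate early and heat shock genes, 4 were higher (median 1.06, and 0.26 in other cells); mitochondrial UMIs were also highest at E7.5 posterior, at a median of 2.20%, 2.28% and 4.06% of a definitive endoderm cell's UMIs. Of 17 replication and 17 mitosis genes, 0 differed 2-fold. Visceral endoderm list genes were higher for 9 of 11 measured (median 1.90, and -1.05 in other cells). The Rhox5-positive share of the class was 9.11%, 28.8% and 26.5%, and in Rhox5-negative cells Apom was at 4.24, 7.45 and 2.52 CPM, Amn at 5.91, 13.0 and 10.6 CPM and Cubn at 3.6, 6.52 and 3.03 CPM. Spink1 had 330, 533 and 1500.2 CPM, with a log2 ratio of 1.49 (1.40 to 1.59) for E7.5 posterior against E7.25.

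E7.25 stood out for a few mesodermal transcripts. Crabp1, a retinoic acid binding protein, had 14.8, 99.5 and 12.6 CPM in definitive endoderm cells, Myl7, a cardiac myosin light chain, had 26.1, 140.1 and 29.3 CPM, and Mesp1 had 138, 269 and 92.6 CPM. Each was highest at E7.25. In the same library 18.1% of definitive endoderm cells met the mesoderm rule and 11.9% had at least 2 blood and endothelium genes, and the E7.25 class was the smallest of the 3. CPM come from summed UMIs, to which deep cells add more than their share of cells. The E7.25 class held 2211952 UMIs, and 1141480 without its mesoderm, node and epiblast cells (22.5% of cells). Its Rhox5-positive cells held 1137677 UMIs. Mesp1 at E7.5 posterior against E7.25 was -1.54, and 0.25 when Rhox5-positive cells were left out.

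**Figure D4:**
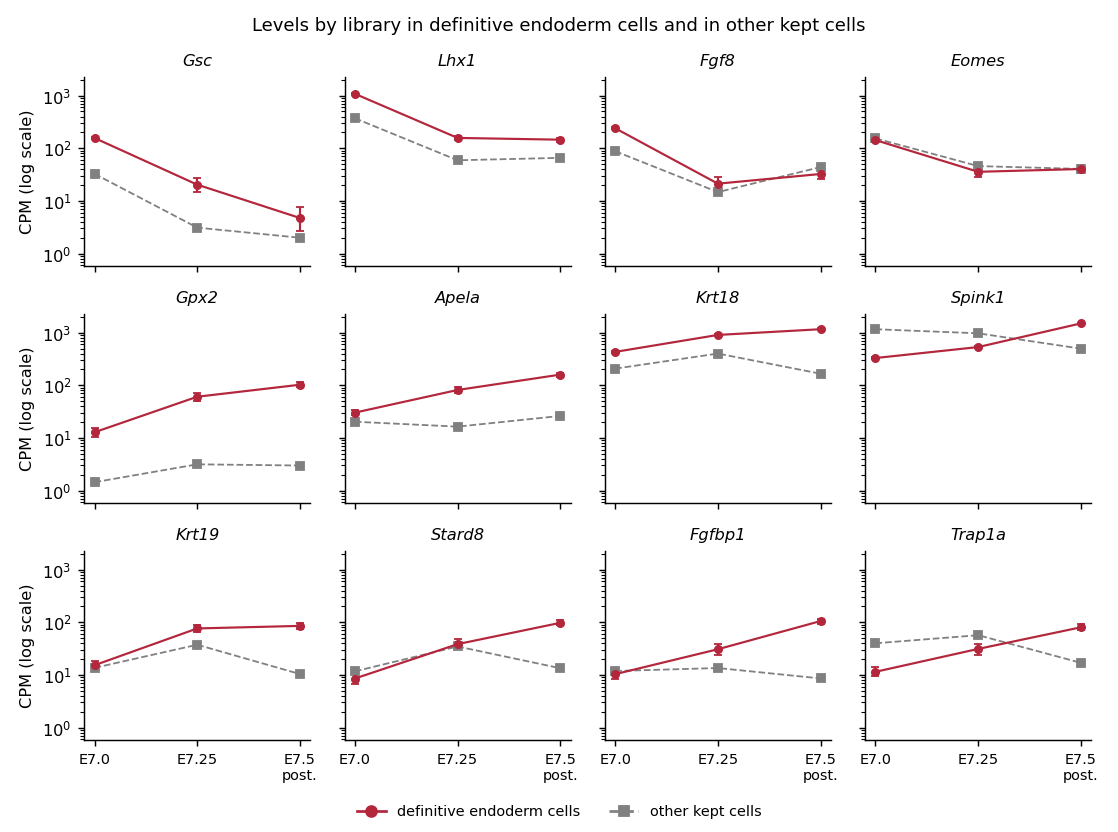
CPM of selected genes by library on a log axis, in definitive endoderm cells (red, with exact Poisson 95% intervals for counting error) and in all other kept cells (grey). Gsc, Lhx1 and Fgf8 drop after E7.0 in both, and Gpx2 and Apela climb in definitive endoderm cells to 102 and 159 CPM at E7.5 posterior, against 2.98 and 26.2 CPM in other cells.

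Some definitive endoderm cells carried Rhox5 together with more Spink1 and Krt19. Rhox5, an X-linked homeobox gene of extraembryonic tissues, was chosen for this split after its values had been seen, so the split is a description with no test. Rhox5 was present in 55, 46 and 63 definitive endoderm cells (9.11%, 28.8% and 26.5%), against 549, 114 and 175 without it. The Rhox5-positive cells were deeper, at a median of 18232, 19118 and 18424 UMIs, against 11734, 8655 and 9527 UMIs. After thinning, Rhox5 was found in 5.29%, 19.1% and 22.2% of cells. Serum-protein UMIs were at 0 in 10.9%, 8.70% and 7.94% of Rhox5-positive cells, against 49.0%, 30.7% and 68.0% of Rhox5-negative cells. Predicted doublets were 30.9%, 13.0% and 7.94% of Rhox5-positive cells, against 9.65%, 5.26% and 13.1%.

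Several genes of epithelia and extraembryonic tissue were higher in that subset. Trap1a, an X-linked tumour antigen gene, had 72.5, 59.8 and 211 CPM in Rhox5-positive cells, against 2.57, 0.931 and 2.02 CPM in Rhox5-negative cells. Krt19 had 99.9, 133 and 209.8 CPM, against 2.96, 16.8 and 10.6 CPM. Spink1 had 1835, 746 and 3321 CPM, against 111, 306 and 405 CPM. Fgfbp1 had 70.7, 58.0 and 270.2 CPM, against 1.54, 1.86 and 6.56 CPM. Each was higher in Rhox5-positive cells in 3 of 3 libraries. The visceral endoderm genes Amn and Apom were higher as well. Amn had 60.1, 31.6 and 85.6 CPM in Rhox5-positive cells, against 5.91, 13.0 and 10.6 CPM in Rhox5-negative cells, and Apom had 38.0, 24.6 and 93.1 CPM, against 4.24, 7.45 and 2.52 CPM. Cubn had 10.6, 7.91 and 6.71 CPM, against 3.6, 6.52 and 3.03 CPM. These values rest on 12, 9 and 8 UMIs, against 28, 7 and 6 UMIs. The Poisson intervals of Cubn overlapped between the subsets at E7.25 and E7.5 posterior.

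Gpx2, Apela and Sox17 were not higher in Rhox5-positive cells of every library. Gpx2 had 12.4, 36.9 and 128 CPM in Rhox5-positive cells, against 12.9, 85.6 and 87.3 CPM in Rhox5-negative cells, and Apela had 39.8, 36.9 and 162 CPM, against 28.8, 128 and 158 CPM. Sox17 was lower in Rhox5-positive cells of each library, at 218, 69.4 and 229.9 CPM, against 353, 248 and 272 CPM. Stard8 had 38.9, 46.6 and 207 CPM in Rhox5-positive cells, against 4.11, 29.8 and 31.8 CPM in Rhox5-negative cells, so it was higher in each library. Cpm, at 15, 21.1 and 105 CPM, against 2.83, 22.3 and 22.7 CPM, Cldn6, at 202, 119.5 and 393 CPM, against 132, 204 and 234 CPM, and the rule gene Trh, at 520.5, 518 and 1179 CPM, against 377, 747 and 545 CPM, were higher at E7.0 and E7.5 posterior and lower at E7.25. With Rhox5-positive cells left out, the log2 ratio of E7.5 posterior over E7.0 was 2.76 for Gpx2, 2.46 for Apela, 3.01 for Cpm and 2.95 for Stard8, against 3.00, 2.40, 3.61 and 3.52 with them. The ratio was 2.09 for Fgfbp1, 1.44 for Gsn, 1.84 for Krt19 and -0.35 for Trap1a, against 3.35, 3.09, 2.48 and 2.81 with them. Spink1 at E7.5 posterior against E7.25 became 0.40. Without these cells 46 genes, in place of 92, had at least a 2-fold higher level in E7.5 posterior than in E7.0.

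**Figure D5:**
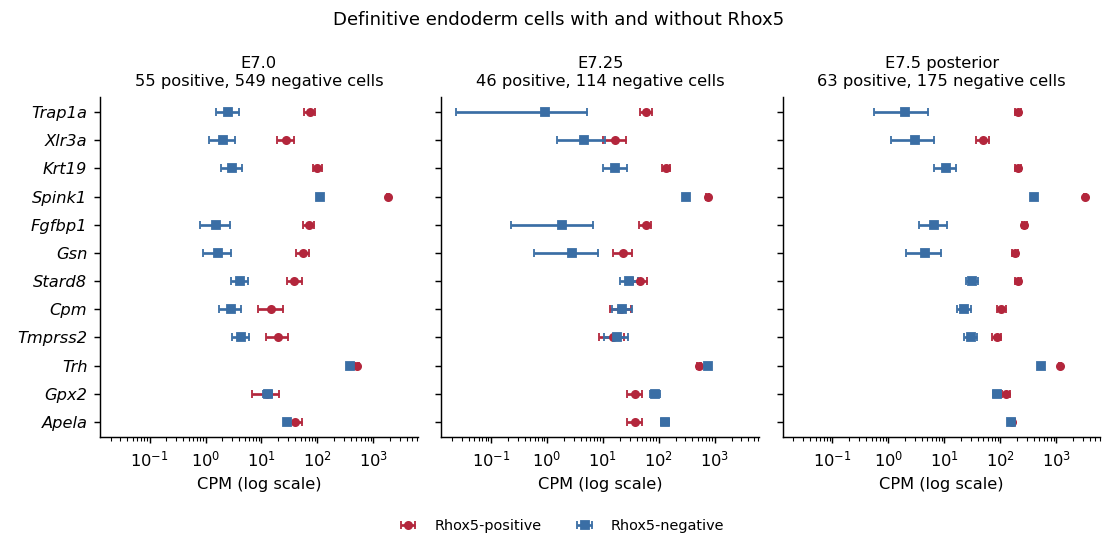
CPM on a log axis of selected genes in Rhox5-positive (red) and Rhox5-negative (blue) definitive endoderm cells of each library, with exact Poisson 95% intervals for counting error. Trap1a, Krt19, Spink1 and Fgfbp1 lie further right in Rhox5-positive cells in each panel, whereas for Gpx2 Rhox5-positive cells lie to the left at E7.25 (36.9 against 85.6 CPM) and to the right at E7.5 posterior (128 against 87.3 CPM), and for Apela to the left at E7.25 (36.9 against 128 CPM).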

How the data were processed

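UMI counts per gene and barcode of 3 libraries were used as deposited by the authors; per the file headers they were made with Cell Ranger 6.0.1, and the genome build is not given in the sources used here. Of 32285 gene identifiers, 32158 were found in the GENCODE M21 annotation (GRCm38). Kept barcodes had at least 1000 detected genes and at most 10% mitochondrial UMIs. Definitive endoderm cells held 8912246, 2211952 and 3173482 UMIs of 111010034, 48836272 and 92190474 in the libraries from the earliest to the latest stage. The libraries shared 8 to 22 kept barcodes in pairs, and 0 of them among definitive endoderm cells. The cells, gene lists and tests were chosen with earlier results of these data known.

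UMI counts were summed per library and class and fitted with edgeR 4.0.16 in R 4.3.3 (TMM factors, filterByExpr, library as a block, Benjamini-Hochberg adjustment over all genes of a contrast). Genes used by the rule of either class were left out. A gene was called at an adjusted p under 0.05 and at least a 2-fold change. The block pairs the 2 classes of 1 library, which share embryos and droplet channel. P-values rest only on the class difference within each of these 3 libraries, against a spread estimated partly from all genes together. Stages were compared without a test, as CPM ratios of at least 2-fold at 50 CPM or more (20 CPM for list genes). Doublets were scored by simulating 2 per cell at an expected rate of 0.05, and the top 0.8% per 1000 cells of a library were marked but kept. Thinning drew 5000 UMIs per cell. Intervals are exact 95% intervals and cover counting error only, and a limit for a count of 0 is 3 counts of the total.

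Named genes were the rule genes, list genes at 20 CPM or more (counts, medians and 2 to 6 examples per list), the 12 highest and 12 lowest called genes of each contrast at 50 CPM or more with 1 direction in every library, and the 10 highest and lowest per stage ratio. Alternatives were RLE factors, no low-count filter, DESeq2 1.42.0 with the library as a block, no library block, other limits of the rule and filters, predicted doublets removed, leaving out each library, and other CPM minimums. At least 1 gene is not reported here. Other tools were Python 3.11.15, numpy 2.4.6, scipy 1.17.1 and scanpy 1.11.5.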

Additional observations from a re-analysis of the deposited data

Results flagged for a closer look

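For Spink1, Rhox5 and Xlr3a the log2 ratio of definitive endoderm cells over other kept cells pointed in opposite directions in different libraries, and the differences between libraries were not tested. Spink1, a trypsin inhibitor, stood at -1.82 at E7.0, -0.87 at E7.25 and 1.595 in the E7.5 posterior library. Rhox5, an extraembryonic homeobox gene, stood at -2.34 at E7.0, -1.12 at E7.25 and 1.41 in the E7.5 posterior library. Xlr3a, an X-linked gene with near-identical copies, stood at -1.37, -1.26 and 1.41 in the same order.

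Barcodes that missed the filters on genes or mitochondrial UMIs included some that met the endoderm rule. They were 20 of 2291 such barcodes at E7.0 (0.873%, where a count of 0 would allow 0.131%) and 11 of 3030 in the E7.5 posterior library (0.363%, where a count of 0 would allow 0.0990%).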

How the results depend on the processing

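Over the called list genes, the named genes and their alternatives, 4437 values kept direction and call or stayed within counting error, 410 kept their direction and lost a call, 80 moved further and 11 turned round; the cause was not tested. Alternatives chosen after seeing the data were those that leave out Rhox5-positive cells, cells with blood and endothelium genes, or mesoderm, node and epiblast cells, those with plain library totals, and, for the Hhex and Trh splits, the restriction to cells with Foxa2 or Cer1. The log2 values that turned round were -0.32 for Mesp1 against visceral endoderm without mesoderm, node and epiblast cells; without Rhox5-positive cells -1.43 for Krt19 against visceral endoderm, -0.27 for Apom and -0.044 for Xlr3a against streak cells, -0.13 for Krt19 with Trh, 0.25 for Mesp1 and 0.45 for Pou3f1 at E7.5 posterior over E7.25, and -0.35 for Trap1a at E7.5 posterior over E7.0; Sox2 with Hhex, at -1.68 to 0.042 with 1 library left out, the last without E7.0; and, at Sox17 of 2 or more, 0.066 for Slc7a3 with Hhex and -0.18 for Pim2 with Trh. Shares of definitive endoderm cells in the order of the stages were 5.92, 1.56 and 1.98% at Sox17 of 2 or more, 6.66, 2.46 and 2.30% with at least 2 second genes, 5.73, 2.05 and 2.11% thinned, 6.91, 2.19 and 2.07% without Rhox5-positive cells and 6.43, 2.39 and 2.45% without mesoderm, node and epiblast cells; the E7.5 posterior share was 2.43% at a serum-protein limit of 0.05% and 3.20% at 0.2%. Against other kept cells, calls were 70 higher and 32 lower without the library block that pairs the classes, 139 and 165 with library totals, and 422 lower with no low-count filter, 445 at Sox17 of 2 or more, 407 without mesoderm, node and epiblast cells and 526 without Rhox5-positive cells; leaving out 1 library gave 145 to 278 higher and 158 to 480 lower, with 158 without E7.25 and 480 without E7.5 posterior. Against streak cells, they were 329 higher and 163 lower without the block and 207 lower with DESeq2. For Hhex, they were 32 higher with no filter, 9 and 3 with DESeq2, 0 and 0 without the block in edgeR (143 genes at an unadjusted p under 0.05), 11 and 10 at Sox17 of 2 or more, 12 and 13 among cells with Foxa2 or Cer1, and 13 to 33 lower with 1 library left out, 13 of them without E7.0. For Trh, they were 7 and 7 with DESeq2, 0 and 0 without the block in edgeR (385 at an unadjusted p under 0.05), 24 and 7 at Sox17 of 2 or more, 28 higher without Rhox5-positive cells, and 22 to 38 higher with 1 library left out, 22 of them without E7.5 posterior. The Trh split at Sox17 of 2 or more also lacks E7.25, where 9 Trh-negative cells were under the minimum of 10 cells per class. Between stages (E7.25 over E7.0, then E7.5 posterior over E7.25, then over E7.0), genes higher and lower were 36 and 120, 52 and 38, and 60 and 55 with TMM factors, 27 and 47, 38 and 16, and 34 and 20 at 100 CPM, and 180 and 119, 174 and 80, and 270 and 66 at 20 CPM; for E7.5 posterior over E7.25, 49 were higher at a limit of 0.05% and 39 without Rhox5-positive cells, and for E7.5 posterior over E7.0, 46 were higher without Rhox5-positive cells. With 1 library per stage no difference between stages has a replicate check.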
